A study of Mus musculus with 8 samples.

Results

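The genes described here are 43 collagens, laminin chains, elastic fibre components, proteoglycans and other genes of the extracellular matrix and of the cells that make it. They were chosen by symbol, with earlier results of these data known, and form 43 of the 43432 genes in the table. They fall into 10 basement membrane genes that epithelium is known to make (Col4a1 to Col4a5 and 5 laminin chains), 3 other genes of the basement membrane zone (Col15a1, Col18a1 and Npnt), and 30 genes known chiefly from fibroblasts, pericytes and smooth muscle, here called stromal. Every library came from EpCAM+CD45- lung cells, a sort for the epithelial surface protein EpCAM that leaves out CD45+ leukocytes, from 14-week-old C57BL/6J mice. The C/C libraries (n = 2) and the C/+ libraries (n = 3) held cells positive for ChiaRed, a reporter of AMCase, the acidic chitinase encoded by Chia1, from homozygous and heterozygous mice. The WT libraries (n = 3) held the whole EpCAM+CD45- gate of wild-type mice, so the effects of sort and of genotype cannot be told apart between reporter and WT libraries. The question set by the design was which transcripts differ between these cells.

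A basement membrane is a thin sheet under every epithelium, built from networks of type IV collagen and of laminin trimers that bind cell-surface integrins. In the alveolus the sheet under the epithelium is fused in places with that of the capillary endothelium, and both cell types make its components. Behind it lies the stroma, in which fibroblasts, smooth muscle cells and pericytes deposit fibrillar collagens, proteoglycans and the elastic fibres that give the lung its recoil.

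In the comparisons that involve C/+, the calls among the 43 genes fell on stromal genes and Col15a1. Of the 28 stromal genes tested, 9 were called higher in C/+ than in WT, where 3.42% of all tested genes were, and 13 were called lower in C/C than in C/+, where 5.33% were. These shares give a scale only, because the genes were chosen with earlier results of these data known. Col3a1, the alpha chain of type III collagen, averaged 3.70 ± 0.0394 CPM (TMM-scaled counts per 1e6 counts) in C/C (SD, n = 2), 45.1 ± 33.0 CPM in C/+ (SD, n = 3) and 8.38 ± 5.50 CPM in WT (SD, n = 3). The 10 basement membrane genes were not called in either of those comparisons. All 10 had fitted log2 fold changes below 0 in all 3 comparisons, as did 49.4% of all tested genes in C/+ against WT, 51.3% in C/C against C/+ and 53.3% in C/C against WT. Their summed level was 1564 ± 78.6 CPM in C/C, 1803 ± 87.2 CPM in C/+ and 2036 ± 13.5 CPM in WT. That of the 30 stromal genes was 1199 ± 59.0, 1366.5 ± 292.4 and 1161 ± 128.2 CPM in the same order. The 6 stromal genes at 10 CPM or more in WT were not called in those comparisons either. A gene is called here when edgeR's quasi-likelihood test gives it a Benjamini-Hochberg adjusted p under 0.05 over all 14906 tested genes.

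The sequences just upstream of the transcription start are shown for 4 stromal genes that were called in at least 1 comparison and 2 basement membrane genes that were not. DESeq2 called both of the latter, Col4a5 and Lama5, lower in C/C against WT. They were taken from RefSeq (GRCm38.p6), are 250 bases long, end at the base before the start and read 5′ to 3′ on the gene's strand. Capitals mark every match, on either strand, to the cores of the TATA box, spelled TATAAA, of the CCAAT box, spelled by its name, and of the GC box, spelled GGGCGG, whose opposite strand reads the reverse complement. The windows are Col3a1 chr1:45311288-45311537 (plus strand), Col1a2 chr6:4505368-4505617 (plus), Bgn chrX:73483351-73483600 (plus), Tgfb2 chr1:186705990-186706239 (minus), Col4a5 chrX:141475169-141475418 (plus) and Lama5 chr2:180225860-180226109 (minus).
Col3a1: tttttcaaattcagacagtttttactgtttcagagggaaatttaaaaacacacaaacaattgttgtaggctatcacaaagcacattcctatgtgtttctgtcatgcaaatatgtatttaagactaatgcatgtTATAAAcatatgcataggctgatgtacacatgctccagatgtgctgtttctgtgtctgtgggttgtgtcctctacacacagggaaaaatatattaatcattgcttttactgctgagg
Col1a2: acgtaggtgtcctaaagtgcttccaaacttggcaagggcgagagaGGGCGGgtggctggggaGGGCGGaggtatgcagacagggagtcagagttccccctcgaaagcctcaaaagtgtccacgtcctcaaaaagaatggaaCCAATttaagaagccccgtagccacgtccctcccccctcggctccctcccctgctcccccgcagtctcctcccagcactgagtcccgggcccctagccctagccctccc
Bgn: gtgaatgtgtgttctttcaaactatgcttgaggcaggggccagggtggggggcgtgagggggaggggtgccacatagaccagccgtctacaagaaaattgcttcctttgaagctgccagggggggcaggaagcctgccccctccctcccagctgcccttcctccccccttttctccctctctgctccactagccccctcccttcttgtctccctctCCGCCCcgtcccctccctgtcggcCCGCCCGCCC
Tgfb2: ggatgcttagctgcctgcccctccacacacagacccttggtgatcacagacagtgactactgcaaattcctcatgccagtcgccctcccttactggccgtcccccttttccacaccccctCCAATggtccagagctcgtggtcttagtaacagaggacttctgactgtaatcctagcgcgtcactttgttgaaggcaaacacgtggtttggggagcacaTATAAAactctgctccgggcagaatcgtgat
Col4a5: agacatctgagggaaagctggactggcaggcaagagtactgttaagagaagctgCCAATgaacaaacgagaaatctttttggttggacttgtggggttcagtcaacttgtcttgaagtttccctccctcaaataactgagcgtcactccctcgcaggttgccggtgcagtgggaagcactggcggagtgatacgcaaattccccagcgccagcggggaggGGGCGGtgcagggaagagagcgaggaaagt
Lama5: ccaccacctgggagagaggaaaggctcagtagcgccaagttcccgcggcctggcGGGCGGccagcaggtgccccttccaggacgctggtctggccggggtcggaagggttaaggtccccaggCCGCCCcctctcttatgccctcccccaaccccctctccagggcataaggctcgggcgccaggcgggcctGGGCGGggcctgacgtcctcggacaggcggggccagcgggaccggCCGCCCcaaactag
The Tgfb2 window holds TATAAA 31 bases before the start and the Col3a1 window holds it 117 bases before, whereas the Col1a2, Bgn, Col4a5 and Lama5 windows hold none. In Bgn, whose last matches to the GC box overlap, 3 matches lie within 34 bases of the start. A window was found for 29 of the 43 genes. TATAAA was in 5 of 19 stromal windows and in 0 of 7 basement membrane windows, against 14.3% of 27025 genes with a window and 8.14% of the tested genes among them. The 5 were those of Col3a1, Tgfb2, Inmt, Tnc and Col13a1, of which Inmt and Tnc were not called and Col13a1 was not tested. GGGCGG was in 10 of 19 stromal and 3 of 7 basement membrane windows, against 35.4% of all genes and 62.4% of tested genes. CCAAT was in 4 of 19 stromal and 3 of 7 basement membrane windows, against 37.5% and 39.8%. These matches describe the letters in the windows and nothing more.

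Total counts per library were 17057216 to 52319957, and 41 of the 43 genes passed the low-count filter. Col13a1 and Lum did not: they had 0 to 7 and 0 to 6 counts per library. The gate's own genes were abundant throughout, and the 12 alveolar type 2 markers summed to 264786 and 269036 CPM in C/C, 230465 to 238220 CPM in C/+ and 197877 to 225414 CPM in WT. The libraries of a group are labelled as separate samples, and the labels do not say that they came from separate animals. The p-values reflect only the spread among libraries, part of which may be technical. Read from Xist and Y-linked counts, C/+ 1, WT 2 and WT 3 were male and the others female. So C/+ and WT each held libraries from more than 1 animal, while for C/C this is not known. C/+ 1 was also the highest C/+ library for 22 of the 24 stromal genes that stood under 10 CPM in WT, and WT 2 was the highest WT library for 16 of them. The C/+ libraries enter both C/+ against WT and C/C against C/+, and the WT libraries enter both comparisons with WT, so the comparisons are not independent of each other.

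**Figure D1:**
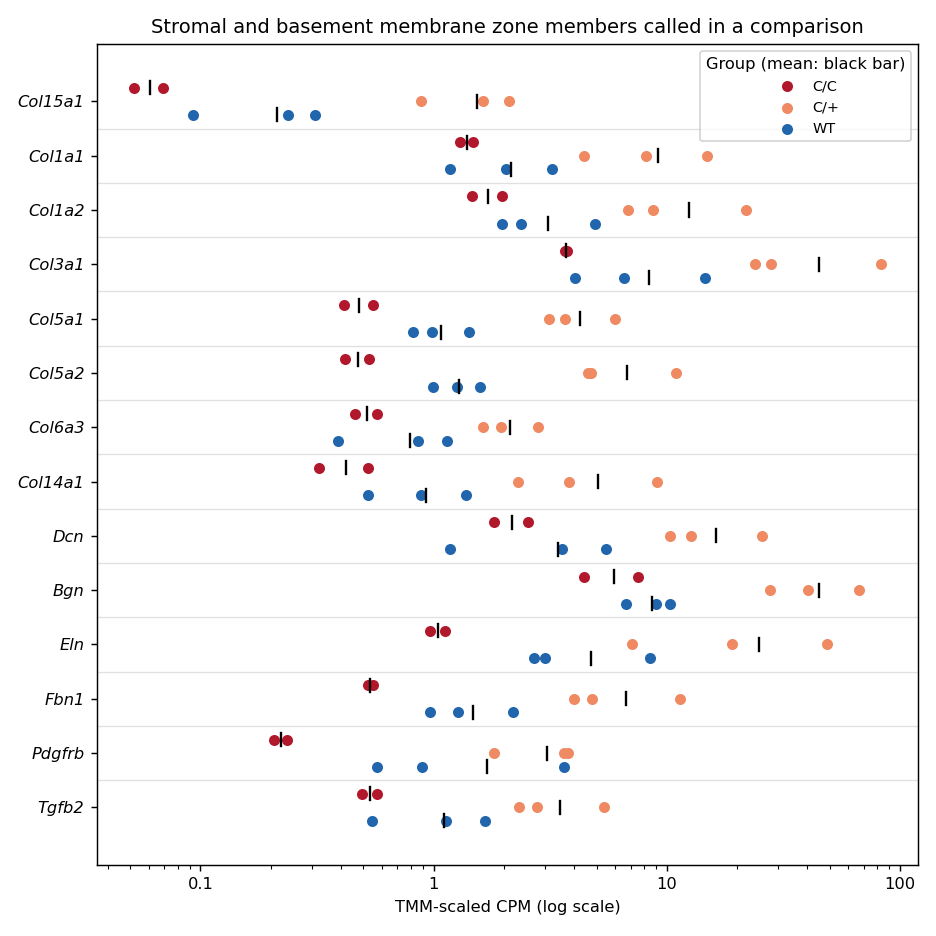
TMM-scaled CPM (log axis) of the 13 stromal genes and Col15a1 that were called in at least 1 comparison, with 1 point per library (C/C 2, C/+ 3, WT 3) and the group mean as a black bar. For 12 of these 14 genes the lowest C/+ library lies above the highest WT library, as in 14.1% of all tested genes, the exceptions being Eln and Pdgfrb, and in all 14 every C/C library lies below every C/+ library, as in 20.2% of all tested genes. The 14 were picked by calls on these same libraries, so their separation follows largely from that choice and is no further support.

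Col4a1 and Col4a2 encode the ubiquitous type IV collagen chains, which assemble together. Col4a1 (chromosome 8, 11198423 to 11312826 on the minus strand of GRCm38) had 363 and 399 CPM in C/C, 489, 414 and 412 CPM in C/+, and 427, 474 and 503 CPM in WT. Its C/C libraries lay below all others, and the C/+ and WT ranges overlapped. It was not called: the log2 fold change was -0.09 (SE 0.11, adjusted p = 0.676) in C/+ against WT, -0.20 (SE 0.12, adjusted p = 0.399) in C/C against C/+ and -0.30 (SE 0.12, adjusted p = 0.191) in C/C against WT. Col4a2 averaged 352 ± 10.5 CPM in C/C, 415 ± 28.3 CPM in C/+ and 438 ± 18.5 CPM in WT.

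Both genes are read in opposite directions from a shared start region, and in GENCODE M21 their annotated spans share 22 bases. Per kb of exon, the Col4a1 level was 0.959 ± 0.0366 of the Col4a2 level in C/C, 0.936 ± 0.0308 in C/+ and 0.946 ± 0.0386 in WT. This ratio thus lay between 0.908 and 0.985 in all 8 libraries. Col4a3, Col4a4 and Col4a5 encode the chains of another network, found in the glomerular and alveolar basement membranes. They were scarcer: per kb of exon, Col4a4 stood at 5.08 CPM in C/C, 6.12 CPM in C/+ and 8.19 CPM in WT, against 51.0, 58.7 and 62.7 CPM for Col4a1 in the same groups. Col4a3 and Col4a4 also lie head to head, 71 bases apart, and the per-kb ratio of Col4a3 to Col4a4 was 0.759 ± 0.0150 in C/C, 0.719 ± 0.0610 in C/+ and 0.727 ± 0.0338 in WT.

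Within WT, Col4a3 and Col4a4 were uneven. Col4a4 had 55.0 and 52.8 CPM in C/C, 71.2, 59.1 and 64.5 CPM in C/+, and 109, 79.0 and 72.7 CPM in WT. The 3 groups did not overlap, WT 1 stood above the other WT libraries, and the difference between C/C and WT missed the threshold (log2 fold change -0.69, SE 0.17, adjusted p = 0.0521). Col4a3 gave -0.63 (SE 0.17, adjusted p = 0.0699) and Col4a5 -0.64 (SE 0.18, adjusted p = 0.0734) in that comparison.

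Among the laminins, Lama3 and Lamb3 encode chains of the epithelial laminin that anchors cells through hemidesmosomes. Lama5 is the main alpha chain of mature alveolar basement membrane, and Lamb2 and Lamc1 encode beta and gamma chains that join it. Lamb3 (chromosome 1, 193207699 to 193343878, plus strand) had 195 and 186 CPM in C/C, 224, 215 and 225 CPM in C/+, and 241, 274 and 278 CPM in WT. The groups did not overlap: every C/C library was below every C/+ library, and every C/+ library below every WT library. Lamb3 was the single member called between C/C and WT, where it fell (log2 fold change -0.48, SE 0.10, adjusted p = 0.0425). It was not called in C/+ against WT (-0.26, SE 0.09, adjusted p = 0.152) or in C/C against C/+ (-0.22, SE 0.10, adjusted p = 0.266). The call was lost in 5 of the 8 fits without 1 library, with adjusted p = 0.271 without C/C 1, 0.270 without C/C 2, 0.0613 without C/+ 2, 0.124 without WT 2 and 0.0931 without WT 3.

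Lama3 averaged 48.2 ± 1.06 CPM in C/C, 60.3 ± 12.6 CPM in C/+ and 70.7 ± 5.59 CPM in WT. Lama5 averaged 216 ± 21.0, 251 ± 20.5 and 296 ± 32.1 CPM in the same order of groups, and Lamc1 73.1 ± 3.04, 82.0 ± 5.06 and 96.0 ± 15.3 CPM. Lamb2 had the fold changes nearest to 0 of the 5 laminin genes, with a log2 fold change of -0.05 (SE 0.13) in C/C against C/+ and -0.22 (SE 0.13) in C/C against WT. Per kb of exon, the laminin genes ordered as Lamb3, Lamb2, Lama5, Lamc1 and Lama3 in WT, at 40.0, 34.9, 26.03, 11.6 and 6.58 CPM, while in C/C Lamb2 at 30.0 CPM lay above Lamb3 at 28.8 CPM, a gap within the spread of Lamb2.

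Counted together, 0 of the 10 basement membrane genes were called in C/+ against WT (DESeq2 called 0, and 3 were lower at an unadjusted p under 0.05, as were 7.8% of all tested genes), in a comparison where 3.92% of all tested genes were called. Likewise 0 of the 10 were called by edgeR in C/C against C/+ (DESeq2 called 0, and 2 were lower at an unadjusted p under 0.05, against 13.1% of all tested genes), where 7.08% of all tested genes were called. Between C/C and WT, 1 was called lower, where 1.36% of all tested genes were, and 9 of 10 had an unadjusted p under 0.05 in that direction, as did 12% of all tested genes. In that comparison the C/C libraries of all 10 genes lay below every WT library, which held for 22.6% of all tested genes. Their median log2 fold change was -0.23 in C/+ against WT, -0.22 in C/C against C/+ and -0.47 in C/C against WT, beside 0.0050, -0.0082 and -0.026 over all tested genes. The call count in C/C against WT rested on the settings: it was 7 by DESeq2, 5 with sex as a covariate and 0 without C/C 1, without C/C 2, without C/+ 2 or without WT 2, and it was 3 without C/+ 3 and 2 without C/+ 1 or WT 1.

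**Figure D2:**
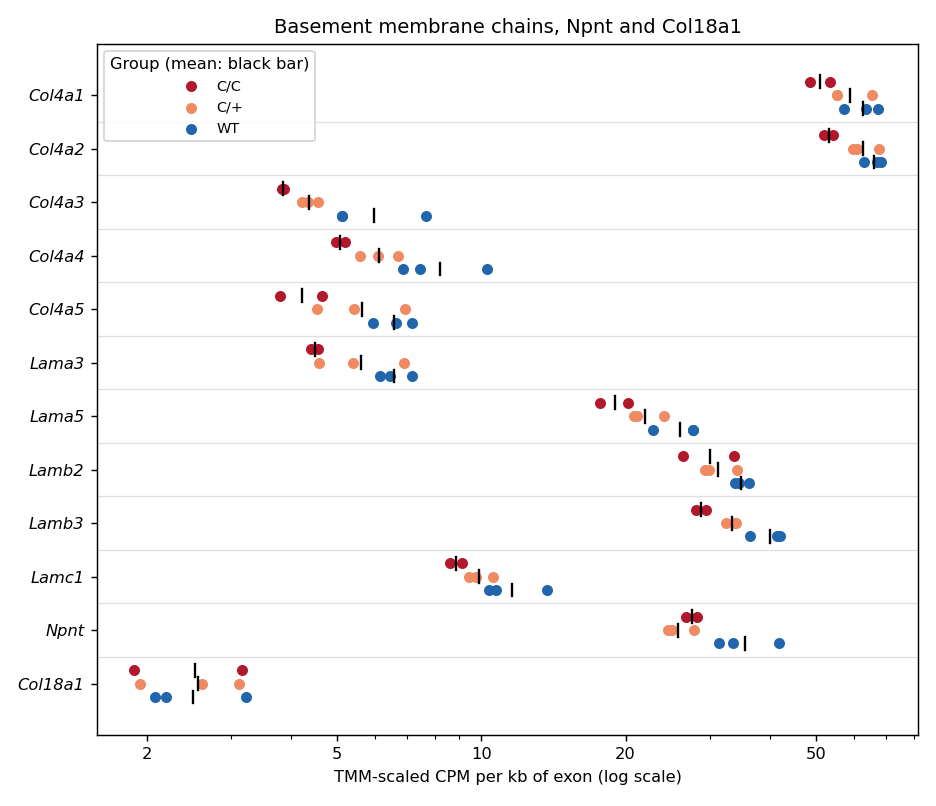
TMM-scaled CPM per kb of exon (log axis) of the 10 basement membrane genes, Npnt and Col18a1, with 1 point per library (C/C 2, C/+ 3, WT 3) and the group mean as a black bar. For all 10 basement membrane genes the C/C libraries lie below the WT libraries, and Col4a1 and Col4a2 stand above Col4a3, Col4a4 and Col4a5.

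The basement membrane zone genes each behaved differently. Col15a1 encodes the core of a collagen proteoglycan that links basement membranes to fibrillar collagen, chiefly around vessels and muscle. It was rare, with 3 and 2 counts in C/C, 50, 45 and 15 counts in C/+, and 12, 5 and 5 counts in WT, or 0.0688 and 0.0521 CPM, 1.63, 2.10 and 0.882 CPM, and 0.310, 0.237 and 0.0930 CPM. The groups did not overlap, with C/+ high and C/C low. It rose in C/+ against WT (log2 fold change 2.88, SE 0.61, adjusted p = 0.0314) and fell in C/C against C/+ (-4.58, SE 0.81, adjusted p = 0.00704). So few counts in C/C leave the size of that fall imprecise. Col15a1 passed the low-count filter only through the C/+ libraries, the group in which it was high. Only C/+ 1 and C/+ 2 reached 1 CPM, so it was not tested with a filter of 1 CPM in 5 libraries.

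Col18a1, the source of endostatin, had 17.7 ± 6.34 CPM in C/C, 18.0 ± 4.18 CPM in C/+ and 17.6 ± 4.42 CPM in WT, and its log2 fold changes were between -0.01 and 0.02. Npnt encodes nephronectin, a ligand of integrin alpha 8 beta 1 made by epithelium. Npnt stood at 142 and 134 CPM in C/C, 139, 126 and 123 CPM in C/+, and 210, 168 and 157 CPM in WT. Both reporter groups lay below WT without overlap and overlapped each other. Npnt was not called, with a log2 fold change of -0.46 (SE 0.12, adjusted p = 0.0555) in C/+ against WT and -0.37 (SE 0.13, adjusted p = 0.135) in C/C against WT. Its pattern across the groups was thus unlike that of Col15a1.

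The fibrillar and associated collagens made up the largest stromal group, and 6 of the 10 tested were called higher in C/+ than in WT, where 3.42% of all tested genes were. Col1a1 and Col1a2 encode the chains of type I collagen, the main fibril of scar, bone and lung interstitium. Col1a1 had 1.47 and 1.303 CPM in C/C, 14.9, 4.43 and 8.17 CPM in C/+, and 2.04, 3.23 and 1.17 CPM in WT. The C/+ libraries stood above all others, and C/C overlapped WT. It rose in C/+ against WT (log2 fold change 2.14, SE 0.46, adjusted p = 0.0324) and fell in C/C against C/+ (-2.73, SE 0.54, adjusted p = 0.0128).

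Col1a2 had 1.97 and 1.46 CPM in C/C, 21.9, 8.77 and 6.82 CPM in C/+, and 2.38, 4.93 and 1.97 CPM in WT. C/+ was again the high group, with C/+ 1 far above C/+ 2 and C/+ 3. Its log2 fold changes were 2.06 (SE 0.46, adjusted p = 0.0381) in C/+ against WT and -2.87 (SE 0.56, adjusted p = 0.0118) in C/C against C/+. Col3a1 (chromosome 1, 45311538 to 45349706, plus strand), whose fibrils accompany type I collagen in distensible tissue, had 3.67 and 3.73 CPM in C/C, 83.1, 24.03 and 28.1 CPM in C/+, and 6.54, 14.6 and 4.04 CPM in WT. The groups did not overlap in any of the 3 pairs, with C/+ highest and C/C lowest. It rose in C/+ against WT (log2 fold change 2.48, SE 0.53, adjusted p = 0.0324) and fell in C/C against C/+ (-3.61, SE 0.66, adjusted p = 0.00833). The call in C/+ against WT was lost in 5 of the 8 fits without 1 library: the log2 fold change was 1.67 (adjusted p = 0.0950) without C/+ 1, and the adjusted p was 0.0550 without C/C 1, 0.0559 without C/C 2, 0.0745 without WT 1 and 0.0953 without WT 3. It was also lost with only the compared groups (adjusted p = 0.0573) and with robust estimation of the spread (adjusted p = 0.131). The call in C/C against C/+ was lost without C/C 1 (adjusted p = 0.112), without C/C 2 (adjusted p = 0.0954) and with robust estimation (adjusted p = 0.0766), and the log2 fold change was -2.81 without C/+ 1.

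Type V collagen, encoded by Col5a1 and Col5a2, starts type I fibrils and limits their width. Col5a1 had 0.413 and 0.547 CPM in C/C, 6.01, 3.13 and 3.65 CPM in C/+, and 0.982, 1.42 and 0.818 CPM in WT. Col5a2 had 0.528 and 0.417 CPM in C/C, 10.9, 4.71 and 4.59 CPM in C/+, and 1.58, 0.996 and 1.26 CPM in WT. The 3 groups did not overlap in either gene. In C/+ against WT Col5a1 rose by a log2 fold change of 2.02 (SE 0.36, adjusted p = 0.0185) and Col5a2 by 2.39 (SE 0.38, adjusted p = 0.0139). In C/C against C/+ they fell, with -3.15 (SE 0.45, adjusted p = 0.00285) for Col5a1 and -3.83 (SE 0.49, adjusted p = 0.00194) for Col5a2.

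Col14a1 encodes a collagen that sits on the surface of type I fibrils. Col14a1 had 0.321 and 0.521 CPM in C/C, 9.11, 3.83 and 2.29 CPM in C/+, and 0.879, 1.38 and 0.521 CPM in WT. Its C/+ libraries lay above all others, with log2 fold changes of 2.52 (SE 0.54, adjusted p = 0.0325) in C/+ against WT and -3.60 (SE 0.67, adjusted p = 0.00924) in C/C against C/+. Col12a1, of the same family, had another pattern: 20.8 and 19.6 CPM in C/C, 17.8, 18.4 and 13.9 CPM in C/+, and 24.7, 21.8 and 27.4 CPM in WT. Here the C/+ libraries were the lowest and the WT libraries the highest, and it was not called (log2 fold change -0.56, SE 0.14, adjusted p = 0.0511 in C/+ against WT).

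Type VI collagen, a beaded microfibril close to cells, is a trimer of the products of Col6a1, Col6a2 and, in the classical form, Col6a3. Col6a1 averaged 396 ± 49.8 CPM in C/C, 352 ± 45.3 CPM in C/+ and 360 ± 42.8 CPM in WT, and Col6a2 75.9 ± 12.4 CPM in C/C, 74.8 ± 12.2 CPM in C/+ and 58.2 ± 2.76 CPM in WT. Neither was called in any comparison. Col6a3 had 0.459 and 0.573 CPM in C/C, 2.81, 1.63 and 1.94 CPM in C/+, and 0.853, 1.14 and 0.390 CPM in WT. It was the low chain in every library and was highest in C/+, with a fall in C/C against C/+ (log2 fold change -2.04, SE 0.54, adjusted p = 0.0461) and a difference in C/+ against WT that was not called (1.47, SE 0.46, adjusted p = 0.105). Per kb of exon the Col6a2 level was 211 ± 1.45 times that of Col6a3 in C/C, 52.03 ± 9.82 times in C/+ and 128 ± 73.6 times in WT. Over the libraries this ratio ran between 41.6 and 212.

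The small leucine-rich proteoglycans Dcn (decorin) and Bgn (biglycan) bind collagen fibrils and growth factors. Both were called in both comparisons that involve C/+. Dcn had 1.81 and 2.53 CPM in C/C, 25.6, 10.3 and 12.7 CPM in C/+, and 3.54, 5.50 and 1.17 CPM in WT. The C/+ libraries were the high ones, and C/C lay within the WT range. Dcn rose in C/+ against WT (log2 fold change 2.30, SE 0.50, adjusted p = 0.0334) and fell in C/C against C/+ (-2.91, SE 0.60, adjusted p = 0.0153).

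Bgn (chromosome X, 73483602 to 73495933, plus strand) had 4.41 and 7.53 CPM in C/C, 66.6, 27.7 and 40.5 CPM in C/+, and 8.997, 10.3 and 6.68 CPM in WT. Its C/+ libraries stood above all others, and the C/C and WT ranges overlapped. It rose in C/+ against WT (log2 fold change 2.39, SE 0.32, adjusted p = 0.0100) and fell in C/C against C/+ (-2.92, SE 0.38, adjusted p = 0.00222). Bgn was the 1 gene of the 43 whose call in C/+ against WT was kept in every alternative and in every fit without 1 library, and Bgn and Col5a2 were the 2 that kept it in C/C against C/+.

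Elastic fibres consist of elastin, encoded by Eln, on a scaffold of fibrillin microfibrils, to which Fbn1 contributes the main protein. Eln (chromosome 5, 134702593 to 134747323, minus strand) had 1.12 and 0.964 CPM in C/C, 48.4, 19.1 and 7.12 CPM in C/+, and 2.69, 8.49 and 3.01 CPM in WT. C/+ 3 lay below WT 2, so C/+ and WT overlapped, while C/C lay below both. Eln fell in C/C against C/+ (log2 fold change -4.58, SE 0.84, adjusted p = 0.00835). In C/+ against WT it was not called (2.46, SE 0.62, adjusted p = 0.0559), and its value rested on single libraries: it was 1.51 (adjusted p = 0.196) without C/+ 1 and 2.90 (adjusted p = 0.0152), a call, without C/+ 3. Eln was also called there by DESeq2 (adjusted p = 0.0408), with sex as a covariate (adjusted p = 0.00529) and with no low-count filter (adjusted p = 4.86e-09).

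Fbn1 had 0.551 and 0.521 CPM in C/C, 11.4, 4.76 and 3.999 CPM in C/+, and 1.27, 2.18 and 0.967 CPM in WT. The groups did not overlap, with C/+ highest and C/C lowest. It rose in C/+ against WT (log2 fold change 2.24, SE 0.44, adjusted p = 0.0242) and fell in C/C against C/+ (-3.65, SE 0.56, adjusted p = 0.00412). The other elastic fibre genes, the fibulins Fbln1 and Fbln5 and the microfibril-associated Mfap4, were not called. Fbln5, needed for elastic fibre assembly, was the most abundant of them, at 7.30 ± 0.965 CPM in C/C, 15.3 ± 6.75 CPM in C/+ and 11.5 ± 3.78 CPM in WT. Mfap4 at 1.67 CPM over all libraries overlaps the more abundant Mapk7 (24.4 CPM) on the opposite strand, and the strand setting of the counting is not given in the sources used here, so its level is uncertain.

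Of the matrix glycoproteins, Sparc, a collagen-binding protein that many epithelia also make, had 485 and 417 CPM in C/C, 734, 490 and 470 CPM in C/+, and 351, 577 and 619 CPM in WT. The 3 groups overlapped, and its log2 fold change was 0.13 (SE 0.22) in C/+ against WT, -0.33 (SE 0.25) in C/C against C/+ and -0.19 (SE 0.25) in C/C against WT. Fn1 (fibronectin) averaged 1.12 ± 0.0321 CPM in C/C, 3.77 ± 1.53 CPM in C/+ and 1.98 ± 1.57 CPM in WT, and Tnc (tenascin C) stayed under 1 CPM in all libraries. Neither was called. Timp3, an inhibitor of metalloproteinases that binds to matrix, had 277 and 169 CPM in C/C, 156, 130 and 135 CPM in C/+, and 115, 149 and 167 CPM in WT. Its C/C libraries were above all others but far apart, and it was not called (log2 fold change 0.66, SE 0.20, adjusted p = 0.0873 in C/C against C/+, and 0.63, SE 0.20, adjusted p = 0.107 in C/C against WT). Timp1, a soluble inhibitor, had 0 to 39 counts per library and was not called.

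Among the mural, fibroblast and signalling genes, Pdgfrb and Tgfb2 were called, in C/C against C/+ alone. Pdgfrb, the growth factor receptor of pericytes and smooth muscle, had 0.207 and 0.235 CPM in C/C, 3.75, 3.64 and 1.82 CPM in C/+, and 3.62, 0.569 and 0.893 CPM in WT. WT 1 was level with the C/+ libraries, and both C/C libraries lay below all others. Pdgfrb fell in C/C against C/+ (log2 fold change -3.79, SE 0.83, adjusted p = 0.0202), was not called in C/+ against WT (0.85, SE 0.59, adjusted p = 0.473), and was called there without WT 1 (2.03, adjusted p = 0.0395).

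Tgfb2, a transforming growth factor beta ligand, had 0.574 and 0.495 CPM in C/C, 5.39, 2.33 and 2.76 CPM in C/+, and 0.543, 1.66 and 1.13 CPM in WT. C/+ lay above all others, and C/C overlapped WT 1. Tgfb2 fell in C/C against C/+ (log2 fold change -2.71, SE 0.56, adjusted p = 0.0159) and was not called in C/+ against WT (1.69, SE 0.46, adjusted p = 0.0724). The contractile genes Acta2 and Tagln were not called. Acta2 (smooth muscle actin) had 1 and 23 counts in C/C, 196, 40 and 33 counts in C/+, and 47, 27 and 20 counts in WT, so that C/C 1 and C/C 2 differed by more than the counting error. Tagln overlaps Pcsk7 (38.8 CPM against 1.34 CPM) on the opposite strand, and its level is uncertain for the same reason as that of Mfap4. Pdgfra, the receptor of alveolar fibroblasts, stayed between 0.149 and 0.881 CPM in all libraries, and Inmt, a methyltransferase of lung fibroblasts, between 1.004 and 4.20 CPM. Neither was called, nor did their groups separate.

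**Figure D3:**
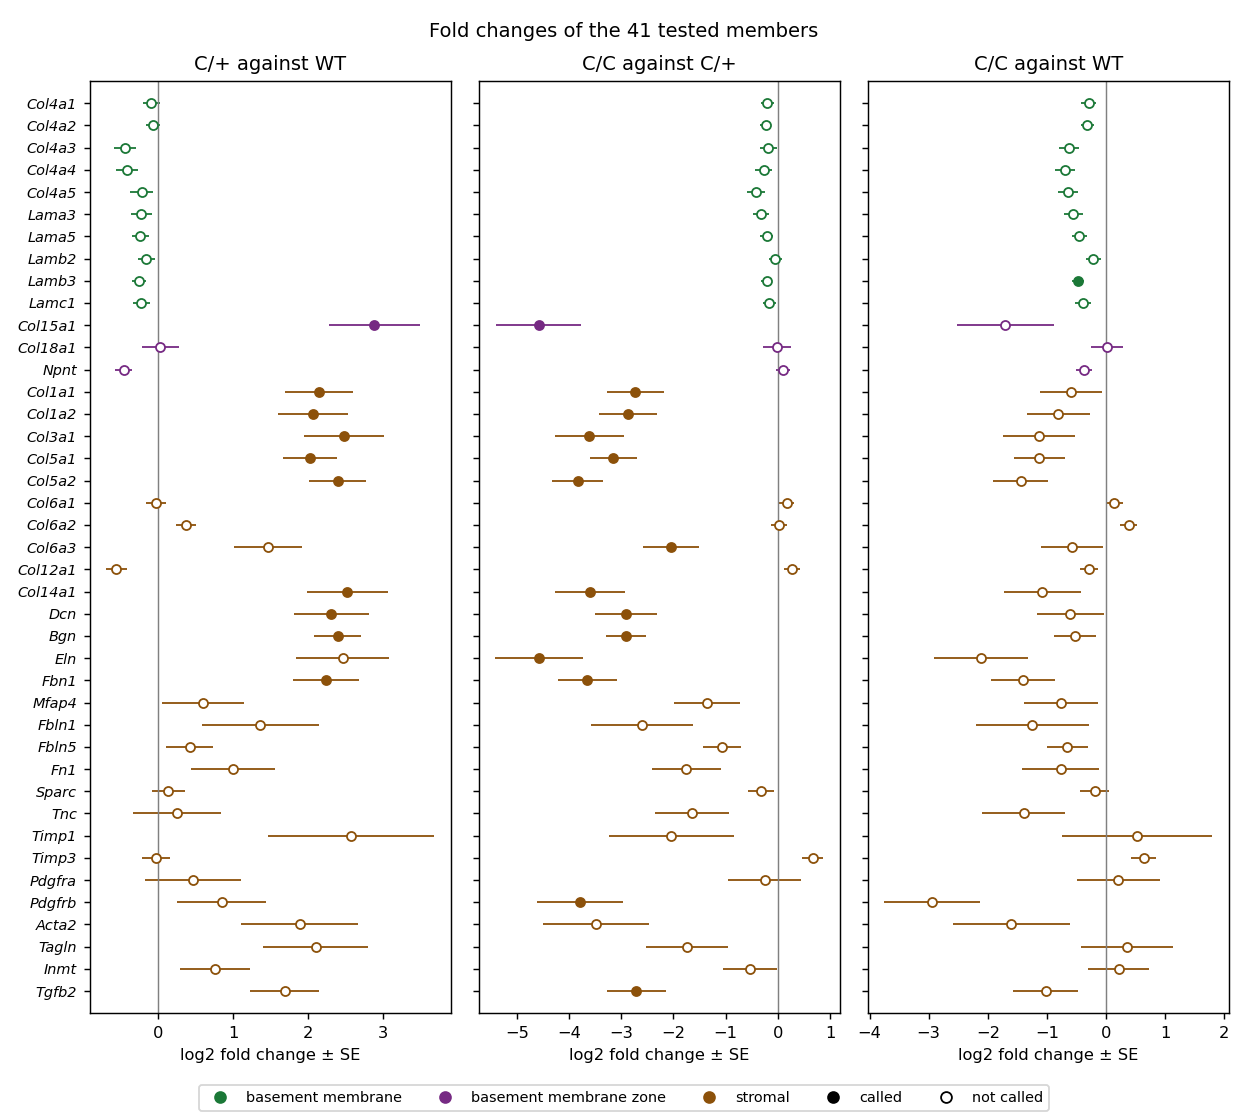
Log2 fold change ± SE (edgeR) of the 41 tested genes in C/+ against WT, C/C against C/+ and C/C against WT, coloured by class, with filled points for called genes and open points for the rest; each panel has its own x axis. The basement membrane genes lie between -0.69 and -0.05 in all 3 panels, while the called stromal genes lie between 2.02 and 2.52 in the first and between -4.58 and -2.04 in the second.

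Over the stromal class, 9 of 28 tested genes were called higher in C/+ than in WT and 0 lower, beside 3.42% and 0.503% of all tested genes, and the median log2 fold change was 1.58 beside 0.0050. The other 19 were not called. Between C/C and C/+, 13 of 28 were called lower and 0 higher, beside 5.33% and 1.75% of all tested genes, with a median of -2.32 beside -0.0082. Between C/C and WT, 0 of 28 were called by edgeR, where 1.62% of all tested genes were called higher and 2.98% in either direction, DESeq2 called 3, and 2 were higher and 5 lower at an unadjusted p under 0.05, against 10.1% and 12% of all tested genes, and the median was -0.71 beside -0.026. The libraries did not overlap for 12 of 28 stromal genes higher in C/+ than in WT, against 14.1% of all tested genes, and for 19 of 28 lower and 2 of 28 higher in C/C than in C/+, against 20.2% and 18.1%. At an unadjusted p under 0.05, 1 stromal gene (Timp3) was higher in C/C than in C/+, against 7.85% of all tested genes. Set against WT, 8 of 28 in C/C lay lower without overlap and 2 higher, against 22.6% and 20.8%.

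These counts moved with single libraries, as did those of all genes. All genes called in C/+ against WT, 585, became 103 without C/+ 1, 198 without C/+ 2 and 729 without C/+ 3. They became 567 without WT 1, 127 without WT 2 and 175 without WT 3. All genes called in C/C against C/+, 1056, became 728 to 1308 when 1 C/+ or WT library was left out. In C/+ against WT the 9 stromal calls became 2 without C/+ 1 or without WT 3, 4 without C/C 1, C/C 2, WT 1 or WT 2, 5 without C/+ 2 and 11 without C/+ 3. In C/C against C/+ the 13 called lower became 2 without C/C 1 and 3 without C/C 2, where the single C/C library left was assumed to vary like the other groups, and 11 to 14 when any 1 of the other libraries was left out. Without C/C 2, Timp3 was called higher (log2 fold change 0.98, adjusted p = 0.0452). By gene, the calls in C/+ against WT were lost in 7 of the 8 fits without 1 library for Col1a2, Col14a1 and Dcn, in 6 for Col1a1 and Col15a1, in 5 for Col3a1, in 4 for Fbn1, in 2 for Col5a1 (without C/+ 1 or WT 3), in 1 for Col5a2 (without WT 2) and in 0 for Bgn. Leaving out C/+ 1 lowered the log2 fold change there to 1.37 for Col1a2 (adjusted p = 0.125), 1.77 for Col14a1 (adjusted p = 0.120) and 1.61 for Fbn1 (adjusted p = 0.0857). In C/C against C/+ the calls were lost in 6 of the 8 fits for Col6a3 and in 4 for Pdgfrb, in 1 for Col5a1 (without C/C 1), in 0 for Col5a2 and Bgn, and in 2 for each of the other 9 genes, those that left out a C/C library.

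The 6 stromal genes at 10 CPM or more in WT were Col6a1, Col6a2, Col12a1, Fbln5, Sparc and Timp3, and edgeR called 0 of these 6 in each comparison, where 3.92% (C/+ against WT), 7.08% (C/C against C/+) and 2.98% (C/C against WT) of all tested genes were called (at an unadjusted p under 0.05, Col6a2 and Col12a1 in C/+ against WT, Fbln5 and Timp3 in C/C against C/+, and Col6a2 and Timp3 in C/C against WT). By DESeq2, Col12a1 was called in C/+ against WT, and Fbln5 and Timp3 in C/C against C/+, and Timp3 in C/C against WT. They summed to 1173 ± 63.7 CPM in C/C, 1164 ± 176 CPM in C/+ and 1113 ± 129.6 CPM in WT. The other 24 summed to 22.5 and 29.0 CPM in C/C, 340, 135 and 134 CPM in C/+, and 45.2, 68.9 and 28.6 CPM in WT. The C/+ libraries stood above all others in this sum, C/+ 1 most of all, and C/C overlapped the lowest WT library. In bulk samples like these, fewer cells of a type and less RNA per cell cannot be told apart.

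Markers of other cell types moved beside these sums. The 12 endothelial markers summed to 64.7 and 57.5 CPM in C/C, 961, 1007 and 587 CPM in C/+, and 310, 140 and 75.3 CPM in WT, with 11 of 12 called higher in C/+ against WT, where 3.42% of all tested genes were, and 12 of 12 lower in C/C against C/+, where 5.33% were. The 2 most abundant, Cdh5, the cadherin of endothelial junctions, and Ptprb averaged 6.34 ± 0.915 and 4.72 ± 0.852 CPM in C/C, 130 ± 25.3 and 106 ± 25.9 CPM in C/+, and 24.5 ± 20.2 and 24.8 ± 23.8 CPM in WT. The 7 mesothelial markers measured of 8 summed to 8.28 and 7.17 CPM in C/C, 206, 69.4 and 70.8 CPM in C/+, and 9.31, 32.1 and 12.8 CPM in WT, with 6 of 7 called higher and 7 of 7 lower, beside the same 3.42% and 5.33%. Msln and Upk3b were the most abundant, averaging 2.399 ± 0.923 and 2.58 ± 0.0782 CPM in C/C, 42.8 ± 32.1 and 32.8 ± 19.98 CPM in C/+, and 6.32 ± 5.43 and 5.20 ± 3.23 CPM in WT. As with the 24 stromal genes, C/+ 1 was the highest library of the mesothelial sum, and WT 2 the highest WT library. The endothelial sum was instead highest in C/+ 2 and, within WT, in WT 1, as was Pdgfrb within WT. The 8 club markers of the airway, 7 of them called higher and 7 lower beside these shares, summed to 491 and 720 CPM in C/C, 5164 to 9694 CPM in C/+ and 460 to 1116 CPM in WT.

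Markers of the cells that make stroma moved in the same directions as the stromal genes at the median. In C/+ against WT the median log2 fold change was 1.43 for smooth muscle, 0.75 for pericyte and 1.18 for fibroblast markers, beside 0.0050 over all tested genes. In C/C against C/+ it was -2.67, -2.40 and -1.76, beside -0.0082. There 8 of 9, 5 of 5 and 6 of 10 tested lay lower without overlap, against 20.2% of all tested genes. The 11 smooth muscle markers summed to 7.53 and 7.56 CPM in C/C, 16.2 to 23.6 CPM in C/+ and 9.01 to 9.26 CPM in WT, with 2 of 9 tested called higher in C/+ against WT (3.42% of all tested genes) and 4 of 9 lower in C/C against C/+ (5.33%), and Myocd, a regulator of smooth muscle, had 0 counts in WT. The 8 pericyte markers summed to 6.17 and 5.58 CPM in C/C, 7.94 to 12.7 CPM in C/+ and 4.98 to 7.47 CPM in WT. Of the 5 tested, edgeR called 0 in C/+ against WT, against 3.92% of all tested genes, and DESeq2 called 1. There 1 was higher at an unadjusted p below 0.05, against 12.3% of all tested genes. In C/C against C/+ edgeR called 0 of 5, against 7.08% of all tested genes, and DESeq2 called 0. There 3 were lower at an unadjusted p below 0.05, against 13.1% of all tested genes. The 13 fibroblast markers summed to 959 and 1036 CPM in C/C, 823 to 1091 CPM in C/+ and 906 to 1165 CPM in WT, but Ces1d alone gave 808 to 1156 CPM of that. Of the 10 fibroblast markers tested, 1 was called higher in C/+ against WT and 2 lower in C/C against C/+, beside 3.42% and 5.33% of all tested genes, and Wnt2 had 0 counts in C/C. The 10 leukocyte markers summed to between 13.8 and 20.9 CPM, with Cd3e and Itgam at 0 in C/C. Over the 7 tested, the median log2 fold change was -0.04 in C/+ against WT, -1.96 in C/C against C/+ and -2.98 in C/C against WT. Of these, edgeR called 0 in each comparison, against 3.92%, 7.08% and 2.98% of all tested genes. DESeq2 called Cd52 lower in both comparisons with C/C. Against WT, 4 of 7 in C/C lay lower without overlap and 1 higher, against 22.6% and 20.8% of all tested genes. The part of these cell types in the stromal results was not tested.

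**Figure D4:**
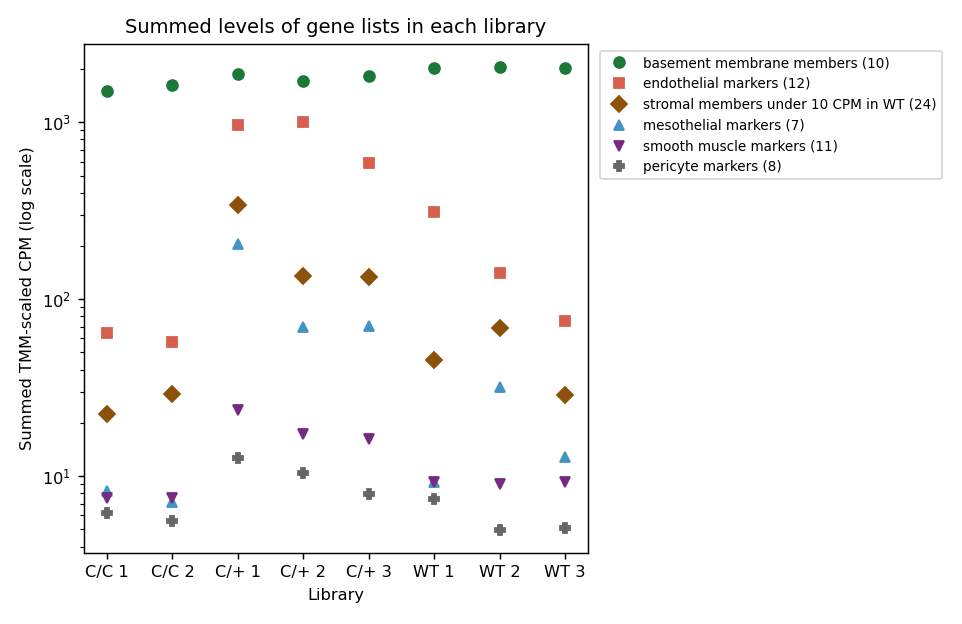
Summed TMM-scaled CPM (log axis) in each library of the 10 basement membrane genes, the 24 stromal genes under 10 CPM in WT, and the endothelial, mesothelial, smooth muscle and pericyte markers, with 1 symbol per list. The 10 basement membrane genes keep between 1508 and 2051 CPM, whereas the 24 stromal genes span 22.5 to 340 CPM and are highest in the C/+ libraries.

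Related genes outside the 43 were counted in lists, whose members were chosen with earlier results of these data known. Of 17 other basement membrane genes tested, 3 were called higher in C/+ against WT and 4 lower in C/C against C/+, beside 3.42% and 5.33% of all tested genes. Pxdn, the peroxidase that cross-links type IV collagen, had 0.964 and 1.02 CPM in C/C, 34.0, 36.3 and 20.1 CPM in C/+, and 8.32, 5.69 and 3.07 CPM in WT. It rose in C/+ against WT (log2 fold change 2.41, SE 0.33, adjusted p = 0.0100) and fell in C/C both against C/+ (-4.93, SE 0.46, adjusted p = 0.0006) and against WT (-2.51, SE 0.44, adjusted p = 0.0215). Nid1, the nidogen that bridges laminin and collagen networks, averaged 0.605 ± 0.377 CPM in C/C, 13.6 ± 4.67 CPM in C/+ and 2.33 ± 1.97 CPM in WT, and was called in both comparisons with C/+. Agrn, the heparan sulfate proteoglycan agrin, followed the laminins instead: it averaged 102 ± 0.349 CPM in C/C, 131 ± 12.4 CPM in C/+ and 157 ± 11.5 CPM in WT, and fell in C/C against WT (-0.63, SE 0.11, adjusted p = 0.0241). Lamb1, the beta chain found in embryonic and vascular laminins, rose in C/+ to 9.01 ± 0.752 CPM, against 5.55 ± 0.431 CPM in WT (log2 fold change 0.70, adjusted p = 0.0401).

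Of 23 genes of collagen processing and cross-linking tested, 2 were called higher in C/+ against WT (Adamts2, a procollagen peptidase, and Loxl1, a lysyl oxidase of elastic fibres), and 3 lower and 1 higher in C/C against C/+, beside 3.42% of all tested genes in the first comparison and 5.33% and 1.75% in the other. Adamts2 averaged 0.271 ± 0.0589 CPM in C/C, 2.85 ± 1.24 CPM in C/+ and 0.415 ± 0.216 CPM in WT. Bmp1, another procollagen peptidase, was the gene that rose in C/C, to 323 ± 21.3 CPM against 245 ± 14.1 CPM in C/+ (log2 fold change 0.40, SE 0.10, adjusted p = 0.0446). P4hb, a subunit of the prolyl hydroxylase, was the most abundant and was not called, at 678 ± 41.3 CPM in C/C, 618 ± 40.6 CPM in C/+ and 637 ± 61.2 CPM in WT. Of 22 other stromal matrix proteins tested, 6 were called higher in C/+ against WT (3.42% of all tested genes) and 7 lower in C/C against C/+ (5.33%), among them Ltbp4, Mgp and Prelp. Ltbp4, which binds latent TGF-beta, averaged 6.97 ± 0.386 CPM in C/C, 31.3 ± 11.3 CPM in C/+ and 10.5 ± 4.32 CPM in WT. Mgp, an inhibitor of calcification, averaged 4.19 ± 1.38 CPM in C/C, 22.2 ± 10.02 CPM in C/+ and 4.52 ± 2.01 CPM in WT.

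Receptors and enzymes of the matrix were counted in the same way. Of 21 matrix receptors tested, 2 were called higher and 1 lower in C/+ against WT (3.42% and 0.503% of all tested genes), 5 lower in C/C against C/+ (5.33%) and 2 lower in C/C against WT (1.36%). Dag1 (dystroglycan), which binds laminin, had 307 and 306 CPM in C/C, 300, 320 and 313 CPM in C/+, and 412, 435 and 459 CPM in WT. Both reporter groups lay below WT and overlapped each other. Dag1 fell in C/+ against WT (log2 fold change -0.49, SE 0.09, adjusted p = 0.0187) and in C/C against WT (-0.51, SE 0.10, adjusted p = 0.0344). Itga3, the alpha subunit of an epithelial laminin receptor, averaged 105 ± 5.01 CPM in C/C and 144 ± 8.68 CPM in WT, a fall (-0.46, SE 0.10, adjusted p = 0.0392).

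Itga6, the alpha subunit of the hemidesmosomal laminin receptor, fell in C/C to 34.8 ± 1.97 CPM, against 50.4 ± 6.06 CPM in C/+ (log2 fold change -0.54, SE 0.13, adjusted p = 0.0314). Ddr2, a receptor for fibrillar collagen, had 0.505 and 0.782 CPM in C/C, 9.43, 3.03 and 2.71 CPM in C/+, and 1.32, 0.996 and 0.855 CPM in WT, with calls in C/+ against WT (2.27, adjusted p = 0.0331) and in C/C against C/+ (-2.99, adjusted p = 0.0127). Of 13 metalloproteinase and inhibitor genes tested, 1 was called higher in C/+ against WT (Mmp2, a gelatinase), 3 lower in C/C against C/+ and 1 lower in C/C against WT, beside 3.42%, 5.33% and 1.36% of all tested genes. Adamts1, a proteoglycan-cleaving enzyme, was lower in C/C than in either other group, at 67.9 and 67.0 CPM in C/C, 175, 136 and 195 CPM in C/+, and 130, 169 and 168 CPM in WT. It fell against C/+ (-1.32, SE 0.17, adjusted p = 0.00205) and against WT (-1.21, SE 0.17, adjusted p = 0.00947). Of 20 genes of the TGF-beta pathway, 5 were called higher in C/+ against WT and 5 lower in C/C against C/+, beside 3.42% and 5.33%. They included Acvrl1 and Eng, a receptor and co-receptor of endothelium, with Eng at 5.62 ± 0.755 CPM in C/C, 73.3 ± 10.9 CPM in C/+ and 15.8 ± 14.5 CPM in WT. Tgfb3, another ligand, fell in C/C against WT (-0.50, SE 0.11, adjusted p = 0.0460).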

How the data were processed

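RNA of sorted EpCAM+CD45- lung cells was made into stranded mRNA libraries, per the labels. The authors deposited raw read counts, as whole numbers, for 43432 mouse Ensembl gene identifiers and 8 libraries. STAR 2.4.2a, DESeq2 and GRCh38, which is a human build, are listed in the submitters' processing notes. How reads were counted, and whether by strand, is not stated in these sources. Levels are therefore uncertain for the 7 members that another gene overlaps at 10% or more of their CPM (Col4a1, Col4a2, Col18a1, Mfap4, Tnc, Timp1 and Tagln). For Col4a1 and Col4a2 the overlap is 22 bases, beside exon lengths of 7464 and 6619 bases, so little of their level is in doubt. Columns were matched to samples by name. Symbols, positions and exon lengths came from GENCODE M21 on GRCm38.

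After filterByExpr (14906 genes kept) and TMM scaling (factors 0.915 to 1.06), edgeR 4.0.16 under R 4.3.3 fitted a single quasi-likelihood model with 1 coefficient for each group to the 8 libraries, so that groups of 3 and 2 share their estimate of the spread. Pairs of groups were compared by its two-sided F test, with Benjamini-Hochberg adjustment. CPM per kb divides TMM-scaled CPM by exon length. At 17057216 to 52319957 counts per library, counting error is small above a few CPM. Within groups, no libraries differed by as little as sampling noise (chi-square per gene 12.2 to 73.5). Tried instead were the size factors and the Wald test of DESeq2 1.42.0, other low-count filters, the compared groups alone, a replicate block, sex as a covariate and leaving out each library. Robust estimation of the spread was added after the data were seen.

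The 43 members and all lists were chosen with earlier results of these data known. By rule, per-library values are given for Col3a1, Bgn, Eln, each called member and, in roles with no call, the most abundant member. From the other lists, up to 3 called genes with the highest CPM are named. Col4a4, Col12a1, Npnt and Acta2 were singled out after their values were seen.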

Additional observations from a re-analysis of the deposited data

How the results depend on the processing

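No member's called fold change turned its direction under any alternative, and DESeq2 size factors moved no count of calls by over 1.5 times. In C/+ against WT the number of genes called, 585, was 1299 with no low-count filter, 356 with only the compared groups, 1700 with sex as a covariate and 1263 by DESeq2. Members called, 10 and all higher, were 18 (14 higher, 4 lower), 5 (all higher), 17 (14 higher, 3 lower) and 16 (14 higher, 2 lower) under the same settings. Stromal members, 9 and all higher, were 14, 4, 14 and 14, with 13 higher and 1 lower in each 14 and all 4 higher. With robust estimation, 8 members (7 higher, 1 lower) and 7 stromal members (6 higher, 1 lower) were called. With a filter of 1 CPM in 5 libraries, 8 stromal members were called, all higher. Basement membrane members, 0, were 2 with no filter and 1 with sex. Between C/C and C/+ the 1056 genes were 1614 with no filter and 1609 by DESeq2. The 13 stromal members called lower in that comparison were 10 with a filter of 1 CPM in 5 libraries. Between C/C and WT the 444 genes were 1456 with no filter, 1348 with sex and 1476 by DESeq2. There the 1 member called became 12 with no filter, 7 with sex, 10 by DESeq2, and 2 with a filter of 1 CPM in 5 libraries, with only the compared groups or with robust estimation. Of these, basement membrane members were 6, 5, 7, 2, 2 and 2, all lower. Stromal members were 6 with no filter, 2 with sex and 3 by DESeq2, with 1 higher and the rest lower in each. The share of called genes that were higher in C/+ against WT, 87.2%, was 72.7% with no filter, 61.6% with sex and 72.4% by DESeq2. The cause was not tested.

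The replicate numbers do not pair the libraries: same-numbered libraries had correlations of -0.21 to 0.087 between their deviations. With a replicate block, 457, 799 and 176 genes and 9, 13 and 0 members were called in C/+ against WT, C/C against C/+ and C/C against WT, so that Col1a1, Col6a3 and Lamb3 lost their calls, with 0 basement membrane members called in C/C against WT.

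Without 1 library at a time, genes called were 103 to 729 in C/+ against WT, 185 to 1308 in C/C against C/+ and 30 to 782 in C/C against WT. Members called were 2 to 12, 2 to 15 and 0 to 3, stromal members 2 to 11, 2 to 14 and 0 to 0, and basement membrane members 0 to 0, 0 to 0 and 0 to 3. Leaving out C/+ 1 gave the lowest count of genes in C/+ against WT, and leaving out C/C 1 the lowest in both comparisons with C/C. Col15a1, at 3 and 2 counts in the C/C libraries, is limited by depth.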
